A study of Homo sapiens with 6 samples.

Results

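Metallothioneins and zinc response genes were examined in RNA sequencing data of HCT116 cells, a human colorectal carcinoma cell line of epithelial origin. The set holds 8 genes, chosen by name, with earlier results of these data known, from the 26255 gene symbols of the deposited tables. It comprises 6 metallothioneins (MT1E, MT1F, MT1G, MT1M, MT1X and MT2A), the zinc exporter SLC30A1 and the transcription factor MTF1. All 8 symbols were found, and 6 of the 8 had a mean of at least 1 FPKM (fragments per unit of exon length, scaled to the size of the library) over the 6 libraries and were tested. MT1G and MT1M were below that level. The study silenced the long noncoding RNA LINC01534 with either of a pair of small interfering RNAs (siRNAs) to ask which transcripts respond. The 3 groups, of 2 libraries each, were parent HCT116 cells, HCT116 cells with siLINC01534-1 and HCT116 cells with siLINC01534-2. The sources used here do not describe the parent cells as given a transfection reagent or a control siRNA, so that transfection and silencing cannot be told apart in a comparison with parent. The labels list 2 libraries per group, whereas the methods describe triplicate cultures, and neither states that the 2 libraries came from separate cultures. The p-values therefore measure only the spread between these libraries, which may be technical.

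Metallothioneins are small, cysteine-rich proteins that bind zinc, copper and cadmium and buffer the free zinc of the cell. When free zinc rises, the zinc finger protein MTF-1, encoded by MTF1, binds metal response elements in the promoters of metallothionein genes and of SLC30A1, which encodes the plasma membrane exporter ZnT1. Zinc importers of the SLC39A (ZIP) family bring zinc into the cytosol, and exporters of the SLC30A (ZnT) family move it out of the cytosol, to the outside or into organelles.

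LINC01534, the target of both siRNAs, was at 0.285 and 0.571 FPKM in the parent libraries, 0 and 0.283 FPKM with siLINC01534-1 and 0.660 and 0.551 FPKM with siLINC01534-2. The steps between low FPKM values make these 1, 2, 0, 1, 2 and 2 reads. LINC01534 was thus not lower than parent in the group with the siLINC01534-2 label, but these read numbers are too low to check the silencing, and the groups are named by label only. Estimated depth ranged from 8690000 to 10400000 reads per library. The 6 epithelial markers EPCAM, KRT8, KRT18, KRT19, CDH1 and CLDN7 were all above 0 and summed to between 3012 and 3642 FPKM per library. Their sum was 3559.9 and 3634 FPKM in parent, 3012 and 3022 FPKM with siLINC01534-1 and 3642 and 3465 FPKM with siLINC01534-2. Against parent, 4 of the 6 were lower with siLINC01534-1: KRT8 (-0.34 on the log2(FPKM + 1) scale), KRT18 (-0.21), KRT19 (-0.18) and CLDN7 (-0.25). With siLINC01534-2, 3 were higher: KRT19 (0.21), CDH1 (0.57) and CLDN7 (0.23). Of all tested genes, 24.5% were lower and 21.8% higher with siLINC01534-1, and 11.8% and 11.1% with siLINC01534-2. The 8 markers of other cell types summed to 7.61 and 7.42 FPKM in parent, 16.2 and 14.0 FPKM with siLINC01534-1 and 9.63 and 8.34 FPKM with siLINC01534-2. Most of this sum came from COL1A1 (3.02 to 5.79 FPKM), ACTA2 (3.29 to 9.04 FPKM) and LYZ (0.606 to 1.66 FPKM), the 3 of these markers that were tested, of which COL1A1 and ACTA2 were higher with siLINC01534-1. CD3E was listed at 0 in every library, and the leukocyte and endothelial markers PTPRC and PECAM1 did not exceed 0.0463 FPKM. Whether the marker sums bear on the results below was not tested.

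With siLINC01534-1, MT1E, MT1X, MT2A and MTF1 fell against parent. MT1E fell most of the 6 tested members, to a mean level 0.338 times that of parent. These were 4 of the 6 tested members, and none rose. Of all 12203 tested genes 46.3% passed the threshold, 24.5% lower and 21.8% higher. Both siLINC01534-1 libraries were below both parent libraries in 6 of 6 tested members, a pattern that 38.3% of all tested genes showed, while 37.5% showed the opposite one. The median difference of the 6 members was -0.64 on the log2(FPKM + 1) scale, and that of all tested genes was 0.00.

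With siLINC01534-2, SLC30A1 and MT1X rose against parent and no tested member fell. These were 2 of 6, and 0 to 2 when 1 library was left out: MT1X lost its call without any 1 of the 6 libraries, and SLC30A1 without any 1 of the parent or siLINC01534-2 libraries. Of all tested genes 22.8% passed the threshold, 11.1% higher and 11.8% lower. Both siLINC01534-2 libraries were above both parent libraries in 5 of 6 members, a pattern of 32.1% of all tested genes (32.7% lay wholly below), and MT1E was the exception. The median difference of the 6 members was 0.27 on the log2(FPKM + 1) scale, and that of all tested genes was 0.00.

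Between the siRNAs, 6 of 6 tested members were lower with siLINC01534-1 than with siLINC01534-2, beside 41.8% of all tested genes that passed, 22.3% lower and 19.5% higher. The libraries of the siRNAs did not overlap for any of the 6, a pattern that 36.9% of all tested genes showed in this direction and 36.5% in the other. The median difference was -1.08 on the log2(FPKM + 1) scale. The comparisons share libraries, so these counts do not add to one another. Since the members were chosen with earlier results of these data known, the counts are no independent support.

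**Figure D1:**
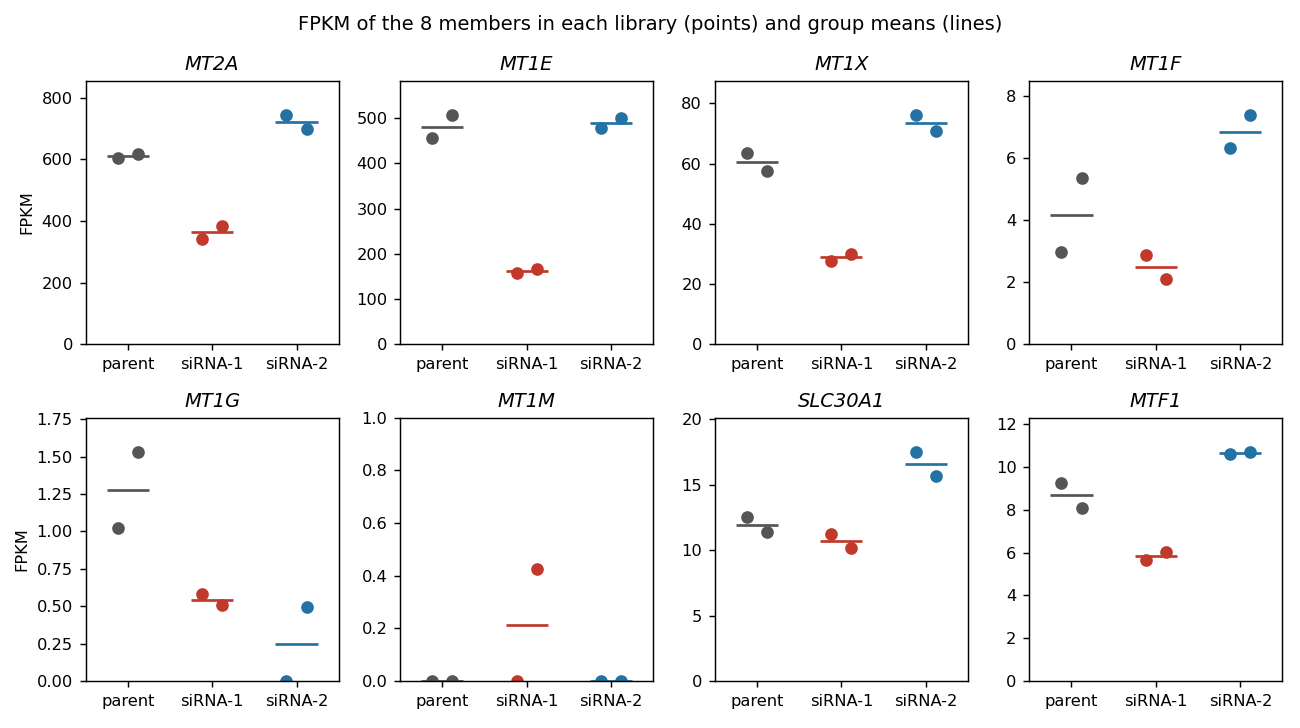
FPKM (vertical axes, from 0, scaled to each gene) of the 8 members in each of the 6 libraries, as points by group (horizontal axes), with lines at the group means. siRNA-1 and siRNA-2 stand for siLINC01534-1 and siLINC01534-2. For MT2A, MT1E and MT1X both siLINC01534-1 libraries lie well below the other 4 libraries.

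The 6 metallothionein members lie within 75.6 kb of the long arm of chromosome 16, from MT2A at chr16:56642496-56643409 to MT1X at chr16:56716382-56718108 (GRCh37, the hg19 build of the files). GENCODE places 14 named metallothionein genes and pseudogenes in this span. The members start 16.9 kb (MT1E), 24.1 kb (MT1M), 49.1 kb (MT1F), 59.5 kb (MT1G) and 73.9 kb (MT1X) from the start of MT2A, and all but MT1G are on the plus strand. MTF1 (chr1:38275246-38325264) and SLC30A1 (chr1:211744910-211752503) are both on the minus strand of chromosome 1.

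The levels in the cluster differed widely between neighbours. In parent cells MT2A and MT1E were the 162nd and 193rd highest of the 12203 tested genes, at mean levels above those of 98.7% and 98.4% of them. MT1X was above 86.7%, and MT1F above 22.8%. The files hold 16 metallothionein symbols, of which 8 were listed at 0 in all 6 libraries (MT1A, MT1B, MT1H, MT1HL1, MT1IP, MT1L, MT3 and MT4). The pseudogene MT1DP did not exceed 1.89 FPKM and the noncoding MT1JP did not exceed 0.573 FPKM.

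**Figure D2:**
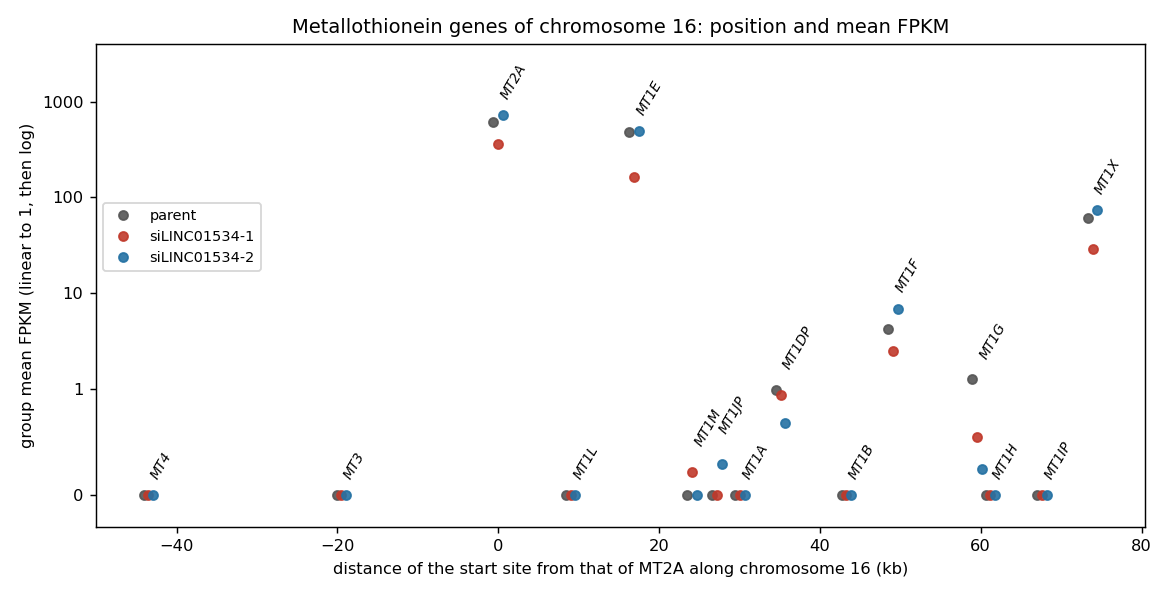
Mean FPKM of 2 libraries per group (vertical axis, linear to 1 and logarithmic above) of metallothionein genes against the distance of their start sites from that of MT2A along chromosome 16 (horizontal axis, kb). Points are shifted slightly sideways by group. MT2A, MT1E and MT1X stand far above their neighbours in all groups, with the siLINC01534-1 mean lowest in each.

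Transcripts of metallothioneins are alike, and reads can be shared between them. Of the 75-base reads that the MT1X transcript can give, 36.1% occur exactly elsewhere in the genome or in another transcript, and 56.4% occur with up to 2 mismatches. For MT1E these shares were 11.9% and 33.5%, for MT2A 0% and 34.6%, and for MT1F 0% and 7.41%. The shares also count matches to sequence not named as a metallothionein, whose overlap with the locus of the gene was not checked. Values of single metallothioneins, MT1X above all, are therefore uncertain, since the way shared reads were assigned is not given in the sources used here. The summed FPKM of all 16 symbols takes in reads shared among them, although each symbol divides reads by its own length, and reads assigned to metallothionein pseudogenes or other sequence outside the 16 are not in it. It was 1128 and 1191 FPKM in parent, 531 and 587 FPKM with siLINC01534-1 and 1305 and 1278 FPKM with siLINC01534-2. The sum with siLINC01534-1 was 0.482 times that of parent and 0.433 times that with siLINC01534-2, and the sum with siLINC01534-2 was 1.11 times that of parent. MT2A and MT1E together made up 93.6% to 94.5% of the sum in every library.

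Metal response elements share a short core, searched here as TGCACNC or TGCGCNC on both strands of the RefSeq start windows of GRCh38.p14, which run from 250 bases before to 50 bases after the start of each gene. MT2A held 8 matches, MT1X 4, SLC30A1 2 and MTF1 0, with no overlap between matches. At least 1 match was present in 29.6% of 35116 windows and at least 4 in 0.601%. Among 9009 tested genes with a window, these shares were 39.5% and 0.799%. The windows of MT1E, MT1F, MT1G and MT1M were not used here. The sequences below show the core in capitals with 10 bases on each side, on the strand of the gene, for the members with the highest and lowest numbers of matches above 0 and for MT1X. A core shown as GNGTGCA or GNGCGCA lies on the opposite strand.
MT2A, 54 bases before the start, chr16:56608520-56608546, plus strand: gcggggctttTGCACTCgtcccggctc
MT2A, 88 bases before the start, chr16:56608486-56608512, plus strand: agcgcggggcGTGTGCAggcagcgccc
MT1X, 122 bases before the start, chr16:56682338-56682364, plus strand: cacgggttgcTGCACCCggcccaggat
MT1X, 78 bases before the start, chr16:56682382-56682408, plus strand: cagcaggggcGGGTGCAaggacgaggc
SLC30A1, 49 bases before the start, chr1:211579194-211579220, minus strand: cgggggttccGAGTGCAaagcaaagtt
A match is a match of letters only, and binding was not measured.

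MT2A encodes the main metallothionein isoform of most human tissues. It was at 604 and 619 FPKM in the parent libraries, 342 and 385 FPKM with siLINC01534-1 and 743 and 699 FPKM with siLINC01534-2. Every siLINC01534-1 library was below parent and every siLINC01534-2 library above it, with no overlap between the 3 groups. The group means were 612 ± 11.2 FPKM in parent, 364 ± 30.4 FPKM with siLINC01534-1 and 721 ± 31.1 FPKM with siLINC01534-2 (SD, n = 2). On the log2(FPKM + 1) scale MT2A fell by 0.75 with siLINC01534-1 (95% confidence interval -0.91 to -0.59, adjusted p = 6.3e-04). With siLINC01534-2 its difference from parent was 0.24 (0.08 to 0.40), which did not pass the threshold (adjusted p = 0.052). That p was 0.046 with a pseudocount of 0.1, 0.044 among genes with a mean of at least 5 FPKM, 0.036 in a fit of the 4 libraries compared, and 0.042 and 0.039 without siLINC01534-1 replicate 1 or 2. Between the siRNAs, MT2A was lower with siLINC01534-1 by a log2 difference of -0.99 (adjusted p = 3.8e-04).

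MT1E, a member of the MT1 subfamily, was second to MT2A in level in every group. It was at 456 and 506 FPKM in the parent libraries, 158 and 167 FPKM with siLINC01534-1 and 478 and 499.7 FPKM with siLINC01534-2. The siLINC01534-1 libraries stood apart below the other 4, among which parent and siLINC01534-2 overlapped. Its means were 481 ± 34.8 FPKM in parent, 162 ± 5.86 FPKM with siLINC01534-1 and 489 ± 15.1 FPKM with siLINC01534-2 (SD, n = 2). MT1E fell by 1.56 on the log2 scale with siLINC01534-1 (-1.71 to -1.41, adjusted p = 7.0e-05), the 87th lowest difference among 12203 genes. With siLINC01534-2 the difference was 0.02 (-0.12 to 0.17, adjusted p = 0.80), with a sign that turned to -0.05 without parent replicate 1 and to -0.01 without siLINC01534-2 replicate 2. Between the siRNAs the difference was -1.58 (adjusted p = 9.2e-05).

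The level of MT1E relative to MT2A also differed between libraries. MT1E was 0.756 and 0.816 times MT2A in parent, 0.462 and 0.432 times with siLINC01534-1 and 0.643 and 0.714 times with siLINC01534-2. The 3 groups did not overlap in this ratio, which was lowest with siLINC01534-1. The ratio is given as a description, with no test and no share over other gene pairs. Reads of both genes can match elsewhere, as given above, so the ratio may also depend on how such reads were assigned.

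MT1X, the third metallothionein by level, was at 63.5 and 57.6 FPKM in the parent libraries, 27.5 and 30.1 FPKM with siLINC01534-1 and 76.0 and 70.7 FPKM with siLINC01534-2. The groups did not overlap and stood in the same order as for MT2A. The means were 60.6 ± 4.16, 28.8 ± 1.83 and 73.3 ± 3.74 FPKM in that order (SD, n = 2). MT1X fell by 1.05 on the log2 scale with siLINC01534-1 (-1.23 to -0.87, adjusted p = 3.0e-04). With siLINC01534-2 it rose by 0.27 (0.09 to 0.45, adjusted p = 0.046). This call was lost without any single library, with adjusted p between 0.064 and 0.18, without the filter on low values (0.082), without the trend (0.074) and in a fit of the 4 libraries compared (0.056). Between the siRNAs the difference was -1.32 (adjusted p = 2.6e-04).

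MT1F, a metallothionein of low level here, was at 2.97 and 5.36 FPKM in the parent libraries, 2.89 and 2.11 FPKM with siLINC01534-1 and 6.33 and 7.38 FPKM with siLINC01534-2. The parent libraries differed more from each other than the lower one did from the siLINC01534-1 libraries, although no groups overlapped. The differences from parent were -0.53 with siLINC01534-1 (-1.14 to 0.08, adjusted p = 0.13) and 0.64 with siLINC01534-2 (0.04 to 1.25, adjusted p = 0.12). Neither passed the threshold, but the first did without parent replicate 1 (-0.87, adjusted p = 0.028) and the second without parent replicate 2 (0.98, adjusted p = 0.048). Between the siRNAs MT1F was lower with siLINC01534-1 by a log2 difference of -1.17 (-1.78 to -0.57, adjusted p = 0.014). The adjusted p was 0.076 without siLINC01534-1 replicate 2, 0.051 without siLINC01534-2 replicate 1 and 0.073 without siLINC01534-2 replicate 2.

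MT1G and MT1M were close to the limit of detection. MT1G was at 1.02 and 1.53 FPKM in the parent libraries, 0.578 and 0.506 FPKM with siLINC01534-1, and 0 and 0.492 FPKM with siLINC01534-2. By the steps between low values these are 2, 3, 1, 1, 0 and 1 reads. Both parent libraries were above the other 4, but without the filter on low values MT1G did not pass the threshold with siLINC01534-1 (difference -0.55, adjusted p = 0.14), with siLINC01534-2 (-0.89, adjusted p = 0.071) or between the siRNAs (0.34, adjusted p = 0.35). MT1M was listed at 0 in all libraries but siLINC01534-1 replicate 2, at 0.424 FPKM. With 1 value above 0 there are no steps, so its read number cannot be read from them. No difference was detectable for MT1G or MT1M at this depth.

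**Figure D3:**
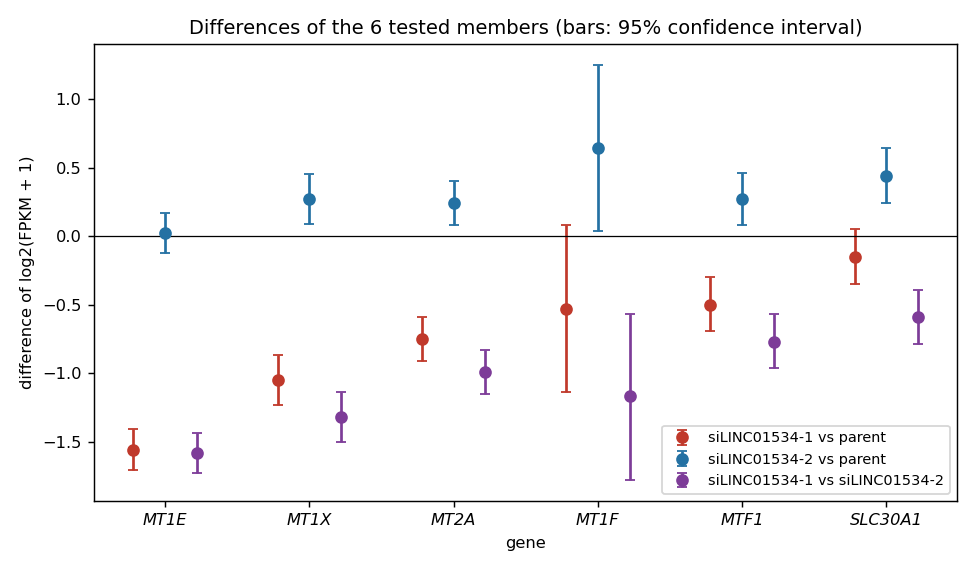
Differences in log2(FPKM + 1) (vertical axis) of the 6 tested members (horizontal axis) for siLINC01534-1 against parent (red), siLINC01534-2 against parent (blue) and siLINC01534-1 against siLINC01534-2 (purple), with bars for the 95% confidence interval. The red points are at or below -0.15 and the blue points at or above 0.02.

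MTF1, which encodes the zinc-sensing activator of the metallothionein genes, was at 9.27 and 8.07 FPKM in the parent libraries, 5.65 and 6.05 FPKM with siLINC01534-1 and 10.6 and 10.7 FPKM with siLINC01534-2. The 3 groups did not overlap, and the order was that of MT2A and MT1X. Means were 8.67 ± 0.847 FPKM in parent, 5.85 ± 0.280 FPKM with siLINC01534-1 and 10.6 ± 0.110 FPKM with siLINC01534-2 (SD, n = 2). MTF1 fell by 0.50 on the log2 scale with siLINC01534-1 (-0.69 to -0.30, adjusted p = 0.0046). Its difference with siLINC01534-2 was 0.27 (0.08 to 0.46), which did not pass the threshold (adjusted p = 0.059). Between the siRNAs the difference was -0.77 (adjusted p = 0.0013).

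An siRNA can also lower transcripts whose 3′ UTR matches bases 2 to 8 of its antisense strand, the seed. The match for siLINC01534-1 is GAATAAA, which holds the polyadenylation signal AATAAA, and that for siLINC01534-2 is TTCGAGT. Both were searched on the transcript strand of the 3′ UTR. No match to either was present in the 3′ UTR of SLC30A1 or of the 6 metallothioneins, which are short, at 139 to 291 bases for the metallothioneins. The 3′ UTR of MTF1, 5562 bases long, held 2 matches for siLINC01534-1 and 0 for siLINC01534-2. They are shown with the match in capitals, on the minus strand of GRCh37, because MTF1 is the only member with one.
MTF1, 3′ UTR base 3678, chr1:38277114-38277140: tttttgctcaGAATAAAaagttaaatt
MTF1, 3′ UTR base 5383, chr1:38275409-38275435: acccaaaaaaGAATAAAtatgaatttg
GAATAAA was present in the 3′ UTR of 26.5% of 10554 tested genes, and in 66.9% of the 625 whose 3′ UTR was at least as long as that of MTF1. TTCGAGT was present in 1.88%. The median difference with siLINC01534-1 was -0.14 for genes with its match and 0.032 for genes without. With siLINC01534-2 the medians were 0.0044 for genes with its match and 0.0053 for genes without. The genes with and without a match were not matched for 3′ UTR length. The part of these matches in the fall of MTF1 was not tested.

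SLC30A1, the exporter that MTF-1 induces when zinc is high, was at 12.5 and 11.4 FPKM in the parent libraries, 11.2 and 10.2 FPKM with siLINC01534-1 and 17.5 and 15.7 FPKM with siLINC01534-2. The siLINC01534-2 libraries stood above the other 4, while the siLINC01534-1 libraries were just below parent. The means were 12 ± 0.786 FPKM in parent, 10.7 ± 0.721 FPKM with siLINC01534-1 and 16.6 ± 1.23 FPKM with siLINC01534-2 (SD, n = 2). SLC30A1 rose by 0.44 on the log2 scale with siLINC01534-2 (0.24 to 0.64, adjusted p = 0.018). The adjusted p was 0.058 without parent replicate 1, 0.090 without parent replicate 2, 0.081 without siLINC01534-2 replicate 1 and 0.051 without siLINC01534-2 replicate 2. Its difference with siLINC01534-1 was -0.15 (-0.35 to 0.05, adjusted p = 0.18). Between the siRNAs the difference was -0.59 (adjusted p = 0.0036).

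Averaging the siRNAs, as in a comparison of silenced with parent cells, gave differences smaller than those with siLINC01534-1 for the genes called. MT1E (-0.77, adjusted p = 5.5e-04), MT1X (-0.39, adjusted p = 0.0069) and MT2A (-0.26, adjusted p = 0.019) were lower than in parent. These were 3 of 6, with none higher, beside 37.2% of all tested genes that passed, 20.1% lower and 17.1% higher. For none of the 6 did the 4 siLINC01534 libraries all lie on one side of parent, whereas 19.3% of all tested genes lay wholly below it and 19% wholly above. MTF1 (-0.11, adjusted p = 0.24), SLC30A1 (0.14, adjusted p = 0.16) and MT1F (0.06, adjusted p = 0.86) did not pass. When the 4 siLINC01534 libraries were pooled into 1 group, with siRNA differences left in the error term, none of the 6 passed (adjusted p = 0.47 for MT1E, 0.66 for MT1X and 0.70 for MT2A). The call of MT2A was also lost without parent replicate 1 (0.082), parent replicate 2 (0.11) or siLINC01534-2 replicate 2 (0.054), and that of MT1X without parent replicate 1 (0.050).

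Other zinc transporters moved in both directions. Of 6 tested exporters of the ZnT list, SLC30A1 included, 2 rose and 2 fell with siLINC01534-1, and 1 rose and 0 fell with siLINC01534-2. These counts stand beside 21.8% of all tested genes higher and 24.5% lower with siLINC01534-1, and 11.1% and 11.8% with siLINC01534-2. The 2 that fell became 1 without any 1 of the 6 libraries, and the 1 that rose, SLC30A1, became 0 without any 1 of the parent or siLINC01534-2 libraries. SLC30A5, SLC30A6, SLC30A7, SLC39A4 and SLC39A10 are named after their values were seen. SLC30A5, which loads zinc into the early secretory pathway, fell from 25.6 and 22.8 FPKM in parent to 13.6 and 14.0 FPKM with siLINC01534-1 (log2 difference -0.76, adjusted p = 5.7e-04), and was at 24.2 and 23.5 FPKM with siLINC01534-2 (-0.02, adjusted p = 0.86). Its partner SLC30A6 was at 12.2 and 12.5 FPKM in parent and rose to 18.8 and 17.8 FPKM with siLINC01534-1 (0.53, adjusted p = 0.0010), and it was at 11.5 and 10.9 FPKM, below both parent libraries, with siLINC01534-2 (-0.13, adjusted p = 0.13). SLC30A7, a Golgi exporter, was at 5.32 and 4.73 FPKM in parent and rose to 9.30 and 8.54 FPKM with siLINC01534-1 (0.72, adjusted p = 0.0016), and it was at 6.25 and 5.77 FPKM with siLINC01534-2 (0.22, adjusted p = 0.11). Both siLINC01534-1 libraries of each of these 3 genes, named with their values known, were outside the range of the other 4 libraries. Among all tested genes, 38.3% had both siLINC01534-1 libraries below both parent libraries, and 37.5% had both above. The share with both outside the range of the other 4 libraries, a stricter pattern, was not counted.

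Of 11 tested importers of the ZIP list, 5 rose and 1 fell with siLINC01534-1, and 3 rose and 0 fell with siLINC01534-2, beside the same shares of all tested genes. The 5 became 3 without parent replicate 2 or siLINC01534-1 replicate 2. The 3 became 1 without parent replicate 1 or siLINC01534-2 replicate 1, 2 without either siLINC01534-1 replicate, and 0 without parent replicate 2 or siLINC01534-2 replicate 2. SLC39A14, an importer of zinc and other divalent metals, and SLC39A7, which releases zinc from the endoplasmic reticulum, passed with both. SLC39A14 was at 48.0 and 44.2 FPKM in parent and at 63.0, 65.3, 57.4 and 62.8 FPKM in the siLINC01534 libraries, all 4 above parent. It rose by 0.47 with siLINC01534-1 (adjusted p = 0.0026) and by 0.38 with siLINC01534-2 (adjusted p = 0.014, and 0.068 without parent replicate 2 or 0.065 without siLINC01534-2 replicate 2). SLC39A7 rose by 0.32 (adjusted p = 0.0047) and by 0.24 (adjusted p = 0.026), and the second call was lost without any 1 of the parent or siLINC01534-2 libraries, with adjusted p of 0.12, 0.071, 0.11 and 0.074. SLC39A4, an importer of the intestinal epithelium, fell by 0.35 with siLINC01534-1 (adjusted p = 0.0013), and SLC39A10 rose by 0.39 (adjusted p = 0.0053). With siLINC01534-2 their differences were 0.11 (adjusted p = 0.089) and -0.12 (adjusted p = 0.22). The median differences of the ZIP list were 0.18 and 0.06, beside 0.00 over all tested genes.

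**Figure D4:**
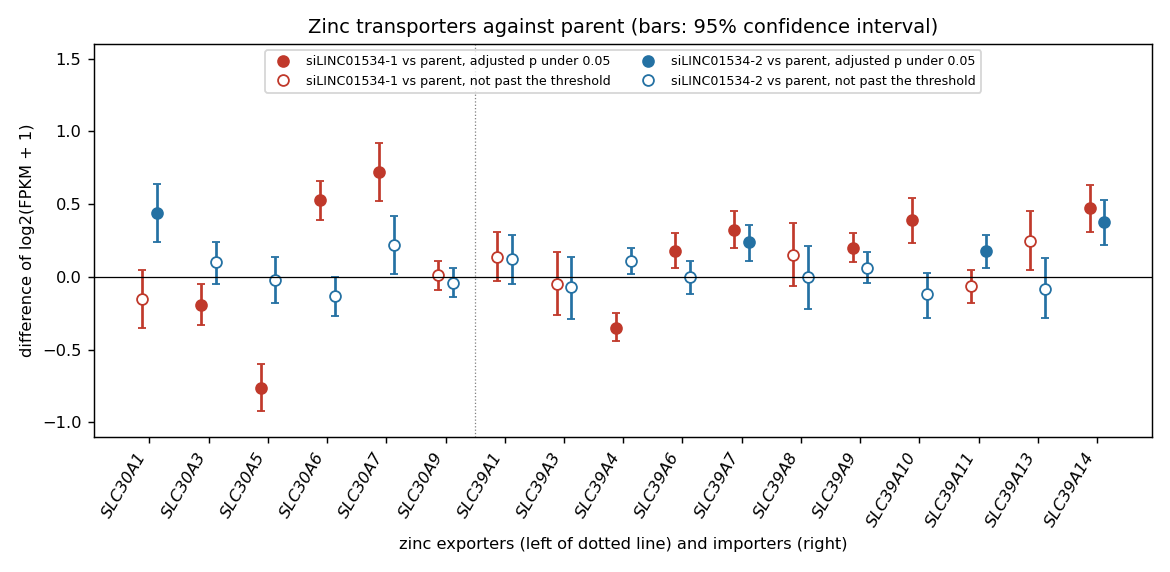
Differences in log2(FPKM + 1) from parent (vertical axis) of the 6 tested ZnT exporters and 11 tested ZIP importers (horizontal axis) with siLINC01534-1 (red) and siLINC01534-2 (blue). Bars are 95% confidence intervals, and filled points passed the threshold. SLC30A5 is the lowest and SLC30A7 the highest point, both with siLINC01534-1.

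Of the 6 tested genes of a list of MTF-1 and its textbook targets outside the metallothioneins, 2 rose and 2 fell with siLINC01534-1, and 2 rose and 1 fell with siLINC01534-2, beside the same shares of all tested genes. With siLINC01534-2 the counts became 1 and 0 without any 1 of the parent or siLINC01534-2 libraries. The list does not separate targets that MTF-1 induces from any that it represses. MTF1, SLC30A1 and SLC39A10 belong to the list and are described above. GCLC, which encodes the catalytic subunit of glutathione synthesis, was at 25.1 and 25.6 FPKM in parent, 42.5 and 43.1 FPKM with siLINC01534-1 and 52.6 and 55.3 FPKM with siLINC01534-2, with no overlap. It rose by 0.73 (adjusted p = 1.6e-04) and 1.06 (adjusted p = 2.5e-04). SEPW1, a selenoprotein gene, fell by 0.38 (adjusted p = 0.0033) and 0.21 (adjusted p = 0.041), and the second call was lost without any 1 of the parent or siLINC01534-2 libraries (adjusted p of 0.11, 0.16, 0.092 and 0.16).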

How the data were processed

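The authors extracted RNA from HCT116 cells, prepared poly(A) libraries with a strand-specific kit (the labels and the methods name different extraction kits), sequenced 75-base single-end reads and aligned these against hg19 (TopHat 2.0.13, Bowtie2 2.2.3 and SAMtools 0.1.19). They deposited the FPKM of Cuffnorm 2.2.1 (listed as Cufflinks in the submitters' processing notes), 1 table per library. The annotation behind the symbols is not given in the sources used here. The labels gave the groups and replicate numbers, and no library was left out.

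FPKM are not counts, so log2(FPKM + 1) of 12203 genes with a mean of at least 1 FPKM was fitted with limma 3.58.1 in R 4.3.3 (1 mean per group, trended eBayes, Benjamini-Hochberg over all tested genes, two-sided, threshold 0.05). Differences are on this scale, which understates changes of low genes. Fold values are ratios of mean FPKM. The p-values rest on a spread shared by the groups and moderated over all tested genes, since groups of 2 libraries are too small for their own. Depth and read numbers were estimated from the steps between low FPKM, with lengths shortened by 200 bases. These read numbers were whole within 0.1 read for 54.9% of 3334 low genes, so no count test was run. Transcripts and gene positions were those of GENCODE v44 lifted to GRCh37, and start windows those of RefSeq, with Python 3.11.15. The fitting was also run on simulated data with independent noise per gene, and the outcome is not given here.

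The members and gene lists were chosen with earlier results of these data known. Named are the members, and, per list, at most 4 genes past the threshold with each siRNA against parent, and the 5 genes outside the metallothioneins (mean of at least 5 FPKM, SD of log2 values of at least 0.3) whose values over 6 libraries correlate best with the mean pattern of the tested metallothioneins. Genes named outside this rule, after their values were seen, are 5 zinc transporters, the heat shock genes and the cell type markers called in a comparison. Alternatives tried were other pseudocounts, filters, scaling, trend, replicate block, grouping and left-out libraries. The sum over metallothionein symbols was chosen after seeing the data.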

Additional observations from a re-analysis of the deposited data

Results flagged for a closer look

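The response of the members to siLINC01534-1 differed from that to siLINC01534-2, by a test of the difference itself with limma over all 12203 genes. The log2 difference with siLINC01534-1 minus that with siLINC01534-2 was -1.58 for MT1E (adjusted p = 9.2e-05), -1.32 for MT1X (2.6e-04), -1.17 for MT1F (0.014), -0.99 for MT2A (3.8e-04), -0.77 for MTF1 (0.0013) and -0.59 for SLC30A1 (0.0036). In each of the 6 genes both siLINC01534-1 libraries were below both siLINC01534-2 libraries, a pattern of 36.9% of all tested genes. At the same threshold 41.8% of all tested genes differed between the siRNAs, 22.3% lower and 19.5% higher with siLINC01534-1. These are the values of the comparison between the siRNAs given above. Groups of 2 libraries are too small for a check of single outlying libraries.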

How the results depend on the processing

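The number of members lower with both siRNAs averaged was 3, 0 with the 4 siLINC01534 libraries as 1 group, and 1 to 3 when 1 library was left out, with 1 without parent replicate 1. The 1-group fit treats the difference between the siRNAs as spread, and over all genes it called 261 higher and 100 lower in place of 2083 and 2458. The number of members higher with siLINC01534-2 was 2, against 1 without the filter on low values, 1 with the replicate block and 1 without the trend, and 0 to 2 when 1 library was left out (0 without parent replicate 1, siLINC01534-2 replicate 1 or siLINC01534-2 replicate 2). MT2A also passed in this comparison with a pseudocount of 0.1 (adjusted p = 0.046) and among genes with a mean of at least 5 FPKM (0.044). The cause of these changes was not tested. Members lower with siLINC01534-1 numbered 4 to 5, and members lower with siLINC01534-1 than with siLINC01534-2 numbered 5 to 6, when 1 library was left out, against 4 and 6. Signs turned only when 1 library was left out and only for differences near 0: MT1F with both siRNAs averaged (-0.28 without parent replicate 1, -0.03 without siLINC01534-1 replicate 1, range -0.28 to 0.40), MT1E with siLINC01534-2 (-0.05 and -0.01, range -0.05 to 0.10), PER1 with both siRNAs averaged (0.01, range -0.04 to 0.01) and SLC30A5 with siLINC01534-2 (0.06, range -0.10 to 0.06). The replicate numbers did not pair the libraries: deviations of same-numbered libraries from their group means correlated at r = 0.11, 0.03 and -0.05, and with the replicate block the calls of members that changed were limited to MT1X with siLINC01534-2 (adjusted p = 0.077). Depth limits MT1G, MT1M and LINC01534. By the steps, MT1G and LINC01534 rest on 3 reads or fewer per library, and MT1M was above 0 in 1 library only.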

Other observations

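Of 11 tested genes of a list of other stress genes that heavy metals induce, 6 rose and 5 fell with siLINC01534-1, and 6 rose and 4 fell with siLINC01534-2. Of all tested genes, 21.8% were higher and 24.5% lower with siLINC01534-1, and 11.1% and 11.8% with siLINC01534-2. The 4 that fell became 1 without parent replicate 1 and 2 without siLINC01534-2 replicate 2. HMOX1, which encodes the heme-degrading enzyme heme oxygenase 1, was at 19.7 and 21.0 FPKM in the parent libraries, 157 and 147 FPKM with siLINC01534-1 and 92.7 and 104 FPKM with siLINC01534-2. It rose by 2.84 (adjusted p = 2.7e-05) and 2.22 (adjusted p = 1.5e-04) on the log2 scale. OSGIN1, an oxidative stress response gene, rose by 1.36 (adjusted p = 8.2e-05) and 1.29 (adjusted p = 3.1e-04). SLC7A11, the cystine importer subunit, rose by 1.39 (adjusted p = 2.2e-04) and 0.93 (adjusted p = 0.0027). GCLM, the modifier subunit of glutathione synthesis, rose by 1.36 (adjusted p = 1.1e-04) and 0.44 (adjusted p = 0.0088, and 0.054 and 0.055 without parent replicate 1 or 2). The genes that fell, named after their values were seen, were heat shock genes. HSPA1B fell by 0.74 (adjusted p = 2.7e-04) and 0.53 (adjusted p = 0.0027), HSPH1 by 0.68 (adjusted p = 2.6e-04) and 0.32 (adjusted p = 0.0087), and DNAJB1 by 0.53 (adjusted p = 3.8e-04) and 0.28 (adjusted p = 0.0080). HSPA1A, a near-identical copy of HSPA1B whose reads cannot be told apart with certainty, fell by 0.37 (adjusted p = 0.030) and 0.38 (adjusted p = 0.048). BAG3 fell by 0.23 with siLINC01534-1 (adjusted p = 0.0039), and its difference was -0.10 with siLINC01534-2 (adjusted p = 0.096). Of 11 tested copper handling genes, 1 rose and 4 fell with siLINC01534-1, and 1 rose and 1 fell with siLINC01534-2. The same shares of all tested genes stand beside these counts. With siLINC01534-1 the 4 became 2 without parent replicate 1 or 2, and the 1 became 2 without siLINC01534-2 replicate 1 or 2. With siLINC01534-2 the 1 that rose became 0 without any library but siLINC01534-2 replicate 1. The copper chaperone ATOX1 fell by 0.14 (adjusted p = 0.015, lost without parent replicate 1 at 0.052, parent replicate 2 at 0.069 or siLINC01534-1 replicate 1 at 0.068) and by 0.25 (adjusted p = 0.0060).

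Glucocorticoids also induce metallothioneins. Of 6 tested glucocorticoid inducible genes, 2 rose and 2 fell with siLINC01534-1, and 3 rose and 0 fell with siLINC01534-2. These counts stand beside 21.8% of all tested genes higher and 24.5% lower with siLINC01534-1, and 11.1% and 11.8% with siLINC01534-2. TSC22D3 rose by 1.68 (adjusted p = 4.4e-04) and 1.29 (adjusted p = 0.0036), and DUSP1, a phosphatase of MAP kinases, by 0.84 (adjusted p = 2.2e-04) and 0.92 (adjusted p = 6.9e-04). The clock gene PER1 was at 12.9 and 12.6 FPKM in parent, fell to 10.2 and 9.54 FPKM with siLINC01534-1 (-0.34, adjusted p = 0.0043) and rose to 16.2 and 15.9 FPKM with siLINC01534-2 (0.31, adjusted p = 0.014). The rise was lost without any 1 of the parent or siLINC01534-2 libraries (adjusted p between 0.066 and 0.077).

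Over the 6 libraries, the genes whose log2 values followed the mean of the 4 tested metallothioneins most closely among 1474 candidates were RPL10A (r = 0.9984), CDV3 (0.9975), EXOSC4 (0.9974), MLF1 (0.9967) and MASTL (0.9963). The 6 points fall into 3 groups of 2, and 300 of the candidates had r above 0.95. The 4 metallothioneins count alike in the mean, so that replicate differences of MT1F, at 2.11 to 7.38 FPKM, affect it. RPL10A, which encodes a ribosomal protein, was at 1196 and 1259 FPKM in parent, 808 and 802 FPKM with siLINC01534-1 and 1349 and 1360.1 FPKM with siLINC01534-2. Its groups stood in the order of MT2A, which follows from its choice by this correlation.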
